A study of Mus musculus with 21 samples.

Results

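The genes examined here were 10 genes of cardiac calcium handling, *Atp2a2*, *Pln*, *Ryr2*, *Casq2*, *Slc8a1*, *Cacna1c*, *Hrc*, *Jph2*, *Camk2d* and *Trdn*, chosen by symbol from the 56691 genes of a table of mouse RNA sequencing counts. All 10 were in the table, and all 10 were among the 13990 genes that passed the filter on low values (a mean FPKM, fragments per kb of exon, scaled to the library total, of at least 0.5). The libraries were labelled Control (n = 5), DOX (doxorubicin, n = 5), Tb (tumor-bearing, n = 6) and Tb-DOX (tumor-bearing and given doxorubicin, n = 5). Control and Tb mice were the saline-treated groups, DOX and Tb-DOX mice received repeated intraperitoneal doxorubicin, and the tumors were grown from the 4T1 mouse breast cancer line implanted under the skin. Strain, sex and age are not given in the sources used here, nor is it stated whether each library came from a separate mouse, so p-values measure the spread between these libraries. Doxorubicin is a cancer drug that can injure heart muscle, and the comparisons ask how the levels of these genes differ after it in hearts of mice with and without a tumor.

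In a beating heart muscle cell, each contraction begins when calcium enters through the L-type channel and opens ryanodine receptors on the sarcoplasmic reticulum (SR), the internal calcium store. The released calcium drives the contractile filaments. Relaxation follows when the SERCA pump returns calcium to the store, held back by phospholamban, and when the sodium-calcium exchanger carries calcium out of the cell. Luminal proteins buffer the stored calcium, junctophilin and triadin hold the release sites together, and the kinase CaMKII phosphorylates several of these proteins.

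The labels give the 4T-1 line as the source of every library, whereas the study describes hearts. All 13 cardiomyocyte markers, sarcomere genes together with the creatine kinase gene *Ckm* and the myoglobin gene *Mb*, were tested, with a summed level of 18170 to 32870 TMM-scaled FPKM over all 21 libraries (FPKM after scaling by trimmed mean of M-values, the scale of every level below unless stated). Of 5 epithelial markers that a 4T1 cell would carry, 1 passed the filter, and their summed level was 0.108 to 2.56. Depth was 13521200 to 18601445 counts per library, and lowest to highest counts of a member in a library were 2321 for *Camk2d* and 199179 for *Atp2a2*. Some libraries stood apart. Control replicate 3 had 14.6% of its counts on mitochondrially encoded genes, against 26.5% to 28.9% in the other Control libraries. DOX replicate 3 gave the lowest DOX value for 9 of the 10 genes, and Tb replicate 5 had the lowest median correlation with its own group (0.939). They were picked by different measures. DOX replicate 3 was picked by the members' own values, so calls gained without it are no separate support. DOX replicate 4 had a lower median correlation with its group (0.970) than DOX replicate 3 (0.976) and was kept.

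Among the 10 genes, 5 changed with DOX in mice without a tumor and 0 passed the test in mice with one. *Slc8a1*, *Jph2* and *Pln* were higher in DOX than in Control, by 1.58, 1.34 and 1.29 times, and *Hrc* and *Camk2d* were lower, at 0.655 and 0.760 of the Control level. *Atp2a2*, *Ryr2*, *Casq2*, *Cacna1c* and *Trdn* did not pass the test. The 3 higher genes stand beside a background of 18% of all tested genes called higher in this comparison, and the 2 lower genes beside 18.2% called lower, at an adjusted p under 0.05 (edgeR quasi-likelihood test, Benjamini-Hochberg over 13990 genes). Heart RNA moved broadly with DOX, so 5 calls of 10 are not a result about these genes as a group. Among the 3289 genes at least as abundant as the least abundant member, 27.5% were called higher and 16.1% lower. No member reached a 2-fold change. On TMM-scaled values the DOX and Control libraries did not overlap for 3 members, *Pln*, *Hrc* and *Camk2d*, against 25.3% of all tested genes. On deposited FPKM those of *Pln* did overlap.

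**Figure D1:**
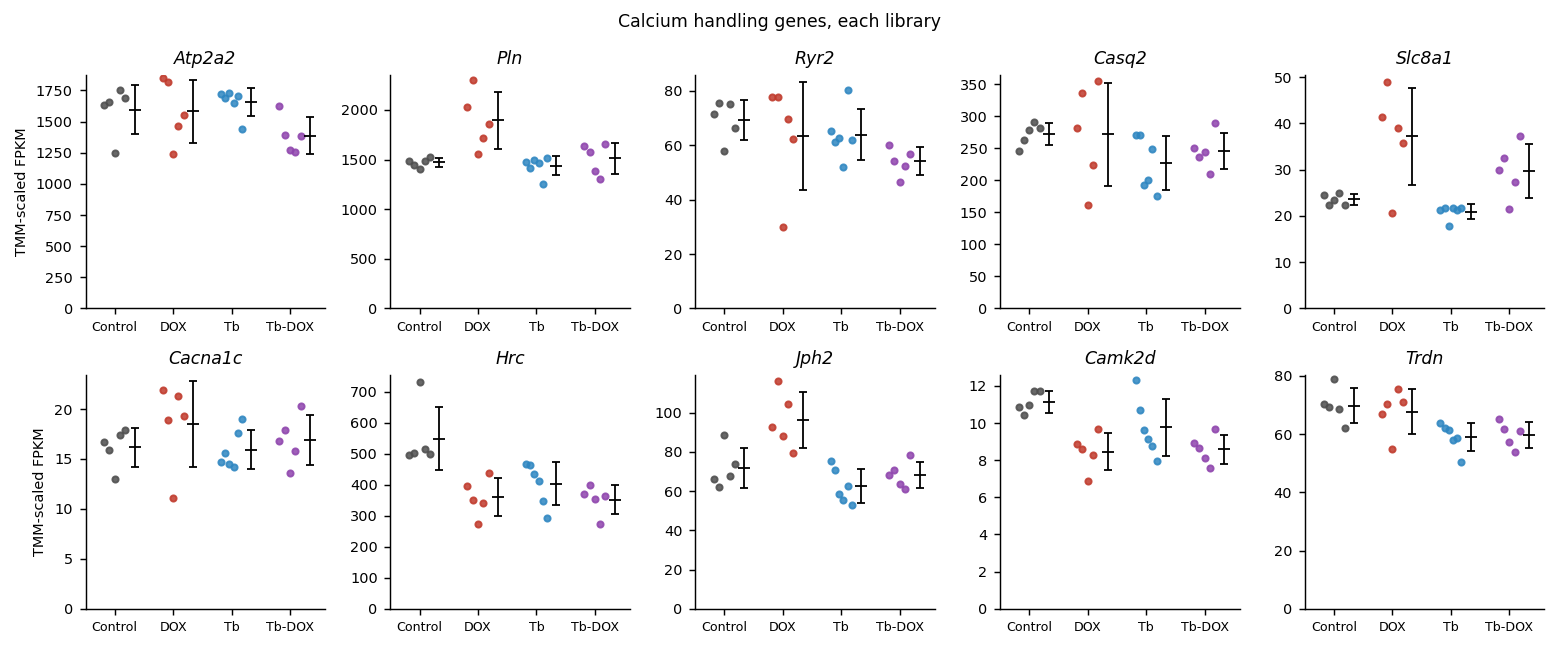
Level of each of the 10 genes (TMM-scaled FPKM, linear axes from 0) in every library of the Control, DOX, Tb and Tb-DOX groups; points are libraries, and the bar beside them is the mean ± SD. Every DOX library lies above every Control library for Pln and below every Control library for Hrc and Camk2d, and the low DOX point for Ryr2 and Slc8a1 is replicate 3.

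The upstream sequences of the 5 genes that changed are shown because they are the DNA next to the start of the transcripts that rose or fell. Each is the 250 bases before the start that RefSeq gives on mouse build GRCm38.p6, read 5′ to 3′ on the gene's own strand, and capitals mark matches, on either strand, to 5 motifs searched: a TATA box (TATAAA), a GC box (GGGCGG), a MEF2 site, an E-box (CAGCTG) and a GATA site (AGATAA). The sequences come from chr10:53337436-53337685 (plus strand) for *Pln*, chr17:81738388-81738637 (minus strand) for *Slc8a1*, chr2:163397994-163398243 (minus strand, the first of 2 starts) for *Jph2*, chr7:45335019-45335268 (plus strand) for *Hrc* and chr3:126596701-126596950 (plus strand) for *Camk2d*.
Pln: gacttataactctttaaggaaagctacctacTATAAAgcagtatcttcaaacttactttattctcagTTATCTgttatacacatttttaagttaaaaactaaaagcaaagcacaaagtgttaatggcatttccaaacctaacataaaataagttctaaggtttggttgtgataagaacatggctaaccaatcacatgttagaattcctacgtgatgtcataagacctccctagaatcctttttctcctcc
Slc8a1: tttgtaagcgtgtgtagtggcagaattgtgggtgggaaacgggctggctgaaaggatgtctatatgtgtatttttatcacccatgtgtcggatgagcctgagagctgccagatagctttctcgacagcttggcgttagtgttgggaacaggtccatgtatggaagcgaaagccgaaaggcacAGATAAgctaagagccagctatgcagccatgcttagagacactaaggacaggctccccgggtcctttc
Jph2: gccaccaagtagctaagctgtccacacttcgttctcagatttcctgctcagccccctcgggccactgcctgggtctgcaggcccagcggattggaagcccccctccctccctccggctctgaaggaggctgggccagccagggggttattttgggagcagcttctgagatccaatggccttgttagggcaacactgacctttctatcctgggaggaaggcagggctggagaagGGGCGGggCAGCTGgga
Hrc: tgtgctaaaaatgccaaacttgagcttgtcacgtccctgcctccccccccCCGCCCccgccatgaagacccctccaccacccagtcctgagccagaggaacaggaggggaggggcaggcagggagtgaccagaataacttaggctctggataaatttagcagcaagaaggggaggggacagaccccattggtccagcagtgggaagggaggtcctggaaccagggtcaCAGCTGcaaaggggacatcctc
Camk2d: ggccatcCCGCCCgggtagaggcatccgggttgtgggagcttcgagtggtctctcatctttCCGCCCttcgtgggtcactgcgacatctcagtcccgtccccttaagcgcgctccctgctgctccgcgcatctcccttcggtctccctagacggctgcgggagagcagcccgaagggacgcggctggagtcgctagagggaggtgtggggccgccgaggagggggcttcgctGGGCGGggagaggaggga
The genes that rose shared no single motif. *Pln*, with 32.8% G and C, held a TATA box at position −219 and a GATA site at −183 (first base of the match, −1 being the base before the start), and *Slc8a1* held a GATA site at −68. *Hrc* and *Jph2*, which moved in opposite directions, each held an E-box, at −22 and −9, together with a GC box. *Camk2d*, with 68.4% G and C against a median of 52.4% over all promoters, held 3 GC boxes. No match to the MEF2 letters was found in the 5 windows, and no printed matches overlapped. Of 32851 RefSeq promoter windows of the same length, 12.4% held the TATA box, 32.7% the GC box, 3.2% the MEF2 site, 13% the E-box and 9.99% the GATA site. The matches describe letters and not sites in use. RefSeq entries were found for 8 of the 10 genes.

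Levels per exonic length spanned 143-fold in Control. *Atp2a2* (chr5:122591576-122640288, GRCm39, minus strand), which encodes the SERCA2 pump, led with 1596 ± 198 (SD, n = 5), followed by *Pln* (chr10:53213763-53222083, plus strand), its inhibitor phospholamban, with 1472 ± 45.0. These neighbours overlapped. *Hrc* (chr7:44984714-44988398, plus strand), a histidine-rich calcium-binding protein of the SR lumen, followed with 549 ± 102 and *Casq2* (chr3:101993731-102053830, plus strand), cardiac calsequestrin, with 272 ± 17.5. *Jph2* (chr2:163178162-163239913, minus strand), *Trdn* (chr10:32956550-33352705, plus strand) and *Ryr2* (chr13:11567988-12121831, minus strand) could not be ordered, at 71.7 ± 10.3, 69.8 ± 6.06 and 69.3 ± 7.35. The least abundant were *Slc8a1* (chr17:81680534-82045806, minus strand) with 23.5 ± 1.20, *Cacna1c* (chr6:118564201-119173851, minus strand) with 16.2 ± 1.95 and *Camk2d* (chr3:126389951-126639975, plus strand) with 11.1 ± 0.570, none of which overlapped its neighbour. The coefficient of variation over the 10 genes had a median of 9.65% in Control, 16.6% in DOX, 13.2% in Tb and 10.5% in Tb-DOX. The DOX median rested on replicate 3, without which it was 11.6%, and the DOX value of *Ryr2* went from 31.2% to 10.3%. The words sarcoplasmic reticulum appear in the table's own cellular component annotation for 6 of the 10. They do not appear there for *Pln*, *Ryr2*, *Slc8a1* and *Cacna1c*, which does not place those genes elsewhere. Gene counts do not separate isoforms. The spans of 8 of the 10 meet another annotated gene, and 4 of these neighbours had a mean FPKM of at least 5. They were *Gm47644* (30.3) and *Cep85l* (6.12) opposite *Pln*, *Gm47845* (24.2) on the strand of *Trdn* and *D830005E20Rik* (7.79) opposite *Trdn*. Whether counting used strand is not stated, so reads of such pairs cannot be told apart.

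The pump gene *Atp2a2* did not pass in either DOX comparison. It was 1632, 1659, 1251, 1754 and 1685 in Control replicates 1 to 5, and 1847, 1817, 1241, 1465 and 1550 in DOX. In Tb it ran from 1440 through a median of 1699 to 1733, and in Tb-DOX it was 1623, 1395, 1272, 1256 and 1385. The Control and DOX ranges overlapped, with DOX replicates 1 and 2 above and replicate 3 below every Control library, whereas 4 of the 5 Tb-DOX libraries lay below every Tb library. The fitted log2 fold change came to −0.01 with an SE of 0.12 (adjusted p = 0.953, edgeR) in DOX against Control and −0.26 ± 0.11 (adjusted p = 0.188) in Tb-DOX against Tb.

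*Pln* was 1491, 1447, 1410, 1484 and 1527 in Control, and 2034, 2304, 1552, 1722 and 1862 in DOX. On this TMM scale every DOX library was above every Control library, with DOX replicate 3 the nearest to them. On deposited FPKM the groups overlapped, with DOX replicate 4 at 1516.5 and Control replicates 3 and 5 at 1539.7 and 1539.2. *Pln* rose by 0.36 ± 0.10 on the log2 scale (adjusted p = 0.00702, edgeR). That call was lost in 5 of 34 alternative analyses, library totals and both limma fits among them. In Tb *Pln* ran from 1252 through 1468 to 1514 and in Tb-DOX it was 1634, 1574, 1388, 1301 and 1658. These groups overlapped, and the log2 fold change was 0.07 ± 0.10 (adjusted p = 0.717). The difference between both DOX effects, −0.29 ± 0.14 on the log2 scale, did not pass the test (adjusted p = 0.166, edgeR).

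Because a ratio of 2 genes within a library does not depend on scaling, *Pln* was also set against *Atp2a2*. The FPKM ratio of *Pln* to *Atp2a2* was 0.913, 0.872, 1.13, 0.847 and 0.906 in Control and 1.10, 1.27, 1.25, 1.18 and 1.20 in DOX. In Tb it ran from 0.733 through 0.859 to 1.05, and in Tb-DOX it was 1.01, 1.13, 1.09, 1.04 and 1.20. All DOX libraries lay above the Control mean and all Tb-DOX libraries above the Tb mean, while Control replicate 3 and Tb replicate 6 reached into the range of the treated groups. The ratio was 1.29 times higher in DOX than in Control (log2 difference 0.37 ± 0.08 SE, 5 of 5 libraries, two-sided exact permutation p = 0.0159, 0.0318 after Benjamini-Hochberg over 8 ratio tests). With a tumor it was 1.26 times higher in Tb-DOX than in Tb (0.33 ± 0.08, 5 of 5 libraries, exact permutation p = 0.0130, adjusted 0.0318). Without a tumor *Pln* was the member of the pair that was called, and with a tumor neither was called alone.

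**Figure D2:**
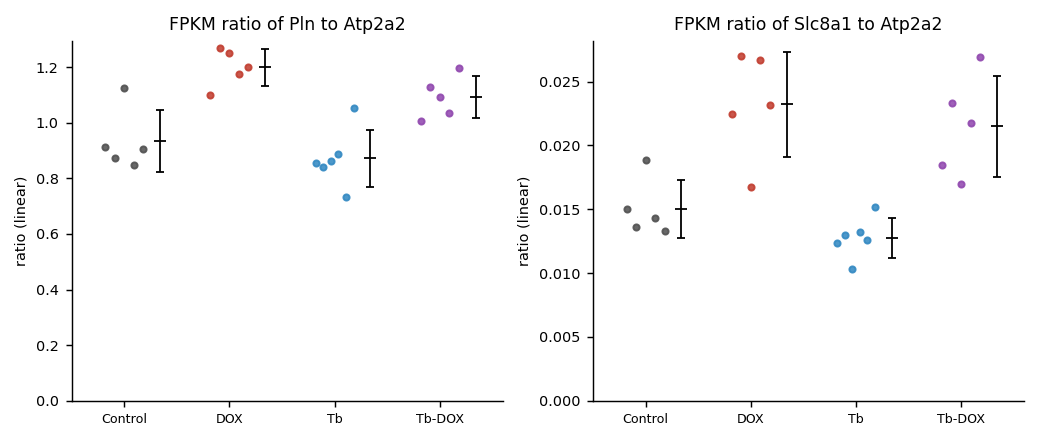
FPKM ratios of Pln to Atp2a2 (left) and Slc8a1 to Atp2a2 (right) in each library, on linear axes from 0; points are libraries and the bar beside them is the mean ± SD. Both ratios are higher in DOX than in Control and in Tb-DOX than in Tb, and the Slc8a1 ratios of Tb-DOX and Tb do not overlap.

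*Slc8a1*, the sodium-calcium exchanger NCX1, carried the largest rise of the 10 in both DOX comparisons. It was 24.5, 22.4, 23.5, 25 and 22.3 in Control and 41.4, 49.0, 20.7, 39.0 and 35.8 in DOX. In Tb it ran from 17.8 through 21.6 to 21.8, and in Tb-DOX it was 29.9, 32.5, 21.5, 27.2 and 37.2. Replicate 3 of DOX lay below every Control library, and replicate 3 of Tb-DOX within the Tb range, whereas the other treated libraries lay above all of their controls. The log2 fold change was 0.66 ± 0.16 (adjusted p = 0.00304, edgeR) in DOX against Control and 0.50 ± 0.15 (adjusted p = 0.0586) in Tb-DOX against Tb, where it missed the threshold. *Slc8a1* passed there in 8 of 34 alternative analyses, DESeq2 and a fit with replicate number as a block among them. Scaled to the cardiomyocyte markers it was at 0.22 (adjusted p = 0.243, edgeR). The calls in Tb-DOX against Tb, 0 of the 10, stand beside 2.18% of all tested genes called higher and 2.54% called lower, and no member had groups that did not overlap, against 4.95% of all tested genes. Without DOX replicate 3, *Slc8a1* rose by 0.82 in DOX against Control and passed in Tb-DOX against Tb (adjusted p = 0.0108, edgeR). That library is in neither group of the second comparison, and the fit shares its spread over all groups. Its fold change there was 0.505, with an SE of 0.11 in place of 0.15. *Slc8a1* also passed in Tb-DOX against Tb without Tb-DOX replicate 3 (adjusted p = 0.0418). The difference between both effects was −0.16 ± 0.22 (adjusted p = 0.666), and it was −0.31 without DOX replicate 3 and −0.0730 without Tb-DOX replicate 3, with no call.

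The FPKM ratio of *Slc8a1* to *Atp2a2* was 0.0150, 0.0136, 0.0188, 0.0143 and 0.0133 in Control, and 0.0225, 0.0270, 0.0168, 0.0267 and 0.0231 in DOX. It ran from 0.0103 through 0.0128 to 0.0152 in Tb, and was 0.0185, 0.0234, 0.0170, 0.0217 and 0.0270 in Tb-DOX. Every Tb-DOX library exceeded every Tb library, and in the mice without tumor only DOX replicate 3 lay within the Control range. The ratio was 1.54 times higher in DOX than in Control (log2 difference 0.62 ± 0.15, 5 of 5 libraries above the Control mean, exact permutation p = 0.0159, adjusted 0.0318) and 1.67 times higher in Tb-DOX than in Tb (0.74 ± 0.14, 5 of 5 libraries, exact permutation p = 0.00433, adjusted 0.0318). Neither ratio passed in Tb against Control or in Tb-DOX against DOX, where adjusted values were 0.0866 to 0.548.

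The members *Cacna1c*, *Ryr2*, *Casq2* and *Trdn* did not pass in either DOX comparison. *Cacna1c*, the pore subunit of the L-type channel, was 16.7, 15.9, 13, 17.4 and 17.9 in Control and 21.9, 18.9, 11.1, 21.3 and 19.3 in DOX. The other 4 DOX libraries lay above every Control library, and replicate 3 lay below all of them. The log2 fold change was 0.20 ± 0.15 (adjusted p = 0.313, edgeR), and without DOX replicate 3 it was 0.34 and passed (adjusted p = 0.0310). In Tb-DOX against Tb it was 0.09 ± 0.14 (adjusted p = 0.780).

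*Ryr2*, the ryanodine receptor through which the SR releases calcium, was 71.3, 75.6, 58.0, 75.2 and 66.3 in Control and 77.9, 77.7, 30.0, 69.7 and 62.3 in DOX. DOX replicate 3 stood below every other library, and the remaining DOX values overlapped with Control. The log2 fold change was −0.13 ± 0.18 (adjusted p = 0.605, edgeR) and turned to 0.06 without that library. In Tb-DOX against Tb it was −0.24 ± 0.17 (adjusted p = 0.450). *Casq2* spanned 246 to 291 in Control and 161 to 356 in DOX, with DOX replicate 3 again the lowest. Its log2 fold changes were 0.00 ± 0.16 (adjusted p = 0.995) in DOX against Control and 0.12 ± 0.16 (adjusted p = 0.727) in Tb-DOX against Tb. *Trdn*, triadin, which anchors calsequestrin to the release channel, spanned 62.0 to 78.9 in Control, 54.9 to 75.5 in DOX, 50.4 to 63.7 in Tb and 53.8 to 65.2 in Tb-DOX. Its log2 fold changes were −0.04 ± 0.09 (adjusted p = 0.736) and 0.02 ± 0.09 (adjusted p = 0.939).

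*Jph2*, which tethers the cell's transverse tubules to the SR, was 66.1, 62.2, 88.7, 67.8 and 73.8 in Control and 92.6, 116, 88.0, 104 and 79.4 in DOX. Control replicate 3 reached into the DOX range, and every other Control library lay below all DOX libraries. *Jph2* rose by 0.42 ± 0.12 (log2, adjusted p = 0.00878, edgeR). That call was lost in 4 of 34 alternative analyses, library totals and both limma fits among them. *Jph2* ran from 53.0 through 60.4 to 75.3 in Tb and was 67.9, 70.7, 63.5, 61.0 and 78.2 in Tb-DOX, with a log2 fold change of 0.13 ± 0.11 (adjusted p = 0.576). The difference between both DOX effects was −0.29 ± 0.16 (adjusted p = 0.237).

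*Hrc* was 495, 503, 732, 516 and 499 in Control and 396, 351, 273, 340 and 437 in DOX. All DOX libraries lay below all Control libraries, and Control replicate 3 stood far above the other Control libraries. *Hrc* fell by 0.61 ± 0.15 (log2, adjusted p = 0.00289, edgeR), and by 0.39 without Control replicate 3, DOX replicate 3 and Tb replicate 5 (adjusted p = 0.0233). In Tb it ran from 293 through 425 to 467, below every Control library, and in Tb-DOX it was 371, 400, 353, 274 and 363. These 2 groups overlapped, with a log2 fold change of −0.20 ± 0.14 (adjusted p = 0.464), and the difference between both DOX effects was 0.42 ± 0.20 (adjusted p = 0.179), or 0.16 without the 3 libraries that stood apart (adjusted p = 0.60).

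*Camk2d*, the main CaMKII isoform of the heart, was 10.9, 10.4, 11, 11.7 and 11.7 in Control and 8.85, 8.60, 6.90, 8.28 and 9.66 in DOX, again without overlap. It fell by 0.40 ± 0.11 (log2, adjusted p = 0.00622, edgeR). In Tb it ran from 7.96 through 9.40 to 12.3, and in Tb-DOX it was 8.92, 8.63, 8.10, 7.59 and 9.66. The log2 fold change with a tumor was −0.19 ± 0.10 (adjusted p = 0.316), and the difference between both effects was 0.21 ± 0.15 (adjusted p = 0.351).

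**Figure D3:**
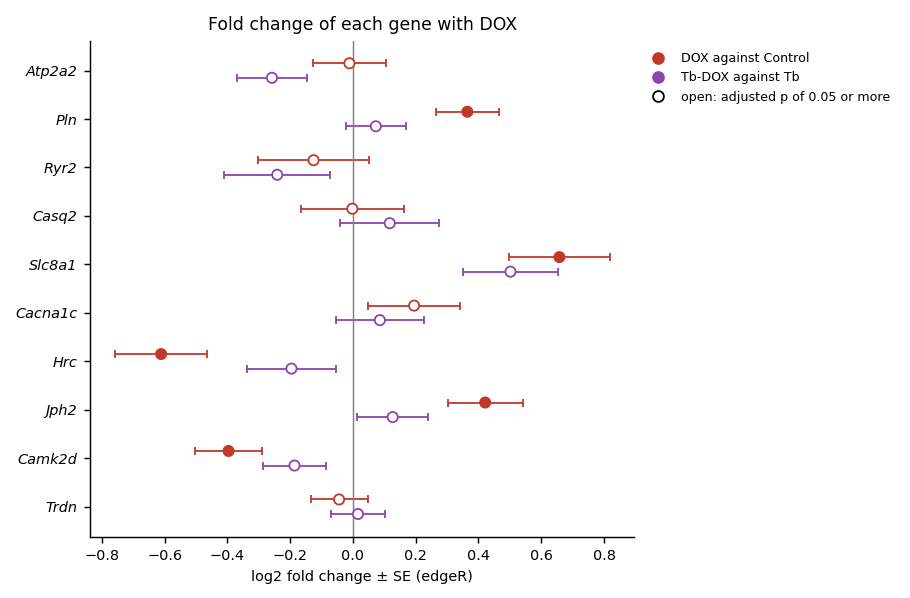
Log2 fold change ± SE of each gene in DOX against Control (red) and Tb-DOX against Tb (purple), from 1 edgeR fit; filled points have an adjusted p under 0.05. Slc8a1, Jph2 and Pln lie to the right and Hrc and Camk2d to the left of 0 in DOX against Control, and no point is filled in Tb-DOX against Tb.

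A single-gene exact permutation test on log2(FPKM + 0.1) of the deposited values, two-sided and not adjusted, gave p = 0.00794 for *Hrc* and *Camk2d*, the smallest that 5 against 5 libraries allow, 0.0238 for *Pln*, 0.0317 for *Trdn* (lower), 0.0476 for *Slc8a1* and 0.0952 for *Jph2* in DOX against Control. On TMM-scaled FPKM it gave 0.00794 for *Pln*, 0.0238 for *Jph2* and 0.627 for *Trdn*, and the same values for the other 3. The values under 0.05 in Tb-DOX against Tb, on deposited FPKM, were 0.0130 for *Atp2a2*, 0.0173 for *Slc8a1* and 0.0390 for *Ryr2*, the last at 0.0519 on TMM-scaled FPKM (exact permutation, not adjusted). The scaling sets part of this. With library totals in place of TMM, the median of all genes moved by −0.14 on the log2 scale in DOX against Control, and *Pln* (0.22, adjusted p = 0.0776) and *Jph2* (0.27, adjusted p = 0.0761) no longer passed, while *Slc8a1*, *Hrc* and *Camk2d* did.

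The 13 cardiomyocyte markers moved with DOX as well. In DOX against Control 5 were called higher and 1 lower, with a median log2 fold change of 0.26, and in Tb-DOX against Tb 5 were higher and 0 lower, with a median of 0.35. Their summed level was 22260 to 31130 in Control, 25140 to 32870 in DOX, 18170 to 23290 in Tb and 22630 to 28820 in Tb-DOX, and none was at 0. In bulk tissue, fewer cells of a type and less RNA per cell cannot be told apart. When libraries were scaled to these markers, an alternative added after the data were seen, the median of all genes moved to −0.24 on the log2 scale in DOX against Control and to −0.29 in Tb-DOX against Tb. Of all tested genes, 5.53% were then called higher and 30.5% lower in the first comparison, and 0.5% higher and 18.2% lower in the second. Under this shift 5 members were called in each DOX comparison. In DOX against Control only *Slc8a1* was higher (0.38, adjusted p = 0.0442, edgeR). *Camk2d* (−0.66), *Hrc* (−0.86), *Ryr2* (−0.42) and *Trdn* (−0.30) were lower. *Pln* was at 0.10 (adjusted p = 0.508) and *Jph2* at 0.18 (adjusted p = 0.185). In Tb-DOX against Tb *Atp2a2*, *Camk2d*, *Hrc*, *Ryr2* and *Trdn* were lower and none was higher, with log2 fold changes of −0.52 to −0.25, the last (*Trdn*) no lower than the median of all genes. *Slc8a1* in DOX against Control, and *Hrc* and *Camk2d* there, were the members called in the same direction under every scaling tried. Markers of other cells moved too. In DOX against Control 5 of 8 fibroblast markers were lower and 1 higher (median −2.05), 5 of 5 erythroid and 5 of 8 macrophage markers were lower (medians −3.34 and −0.75), and 5 of 7 neutrophil markers were higher (median 3.62). Of 8 endothelial markers 2 were lower, and of 6 smooth muscle and of 6 tested atrial markers 1 was higher and 1 lower. Of 5 tested skeletal muscle markers 1 was lower, and the 1 tested lymphocyte marker of 7 was higher. The summed lymphocyte level in DOX ran from 1.70 through a median of 2.84 to 76.3, so the highest library stood far above that median. The 1 tested epithelial marker was not called and no adipocyte marker passed the filter. All 5 erythroid markers were lower in Tb-DOX against Tb (−6.55 to −4.53 on the log2 scale), as were 4 of 8 fibroblast, 2 of 8 macrophage, 1 of 8 endothelial and 1 of 5 tested skeletal muscle markers, 1 of 6 tested atrial markers was higher, and none of 7 neutrophil markers was called. Their part in the members' changes was not tested.

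The test of whether the DOX effect differed with a tumor called 0 of the 10 genes, against 3.95% of all tested genes called higher and 5% called lower. Of the 10, *Pln* alone had an unadjusted p under 0.05 in that test. The 5 calls without a tumor and 0 with a tumor are therefore not shown to differ.

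In Tb against Control, 0 members were called, against 5% of all tested genes called higher and 1.29% called lower. *Hrc* came nearest, at −0.44 ± 0.14 on the log2 scale (adjusted p = 0.0632, edgeR) and at −0.28 without the 3 libraries that stood apart (adjusted p = 0.258), followed by *Trdn* at −0.24 ± 0.09 (adjusted p = 0.113). These were the 2 members with an unadjusted p under 0.05. On TMM-scaled values all 6 Tb libraries lay below all Control libraries for 2 members, *Hrc* and *Slc8a1*, against 6.18% of all tested genes whose groups did not overlap. On deposited FPKM the *Slc8a1* groups overlapped, with Tb replicate 6 at 24.8 and Control replicate 2 at 22.0. The fitted log2 fold change of *Slc8a1* was −0.17 ± 0.15 (adjusted p = 0.544, edgeR). All 7 neutrophil markers were higher in Tb than in Control (5.93 to 12.95 on the log2 scale), 1 of 8 endothelial markers was lower, and the 13 cardiomyocyte markers, none of them called, had a median of −0.23. Their part in the *Hrc* and *Slc8a1* values was not tested. In Tb-DOX against DOX, *Jph2* fell by 0.49 ± 0.12 (adjusted p = 0.00676) and *Pln* fell by 0.33 ± 0.10 (adjusted p = 0.0271), against 9.52% of all genes called higher and 7.93% called lower. Both were among the 3 that were higher in DOX than in Control, and the comparison shares the DOX libraries with that one. The other, *Slc8a1*, was not called here (adjusted p = 0.164, edgeR). On TMM-scaled values every Tb-DOX value of *Jph2* lay below every DOX value, and it was the 1 member whose groups did not overlap, against 14.5% of all tested genes. On deposited FPKM the *Jph2* groups overlapped, with DOX replicate 5 at 71.6 and Tb-DOX replicate 5 at 77.8. The *Pln* call was lost in 13 of 34 alternatives, library totals (−0.14, adjusted p = 0.331) and limma among them, and without DOX replicate 1 or 2 or Tb-DOX replicate 3 or 4 (adjusted p of 0.0564 to 0.102). The *Jph2* call was lost in 3, under library totals (adjusted p = 0.0698) and both limma fits. Without DOX replicate 3, *Ryr2* and *Slc8a1* were called lower as well, and without the 3 libraries that stood apart *Atp2a2* and *Trdn* too. All 7 neutrophil markers were higher in Tb-DOX than in DOX (median 5.50 on the log2 scale), and 3 of 8 macrophage markers were higher. Of 8 fibroblast markers 2 were higher and 2 lower, and 1 of 6 atrial markers was higher. Lower were 2 of 5 erythroid, 1 of 6 smooth muscle and 1 of 5 tested skeletal muscle markers and the 1 tested lymphocyte marker. The summed lymphocyte level was 1.05 to 3.45 in Tb-DOX and 1.70 to 76.3 in DOX, with a DOX median of 2.84. Of the 13 cardiomyocyte markers 1, *Actn2*, was lower (−0.49), and *Pdgfra* (−0.49) and *Dcn* (−0.40) of fibroblasts and *Des* (−0.38) of smooth muscle were lower by a like amount. Their part in the *Jph2* and *Pln* values was not tested.

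Beyond the members, 95 of 110 genes on 7 wider lists of calcium handling passed the filter. In DOX against Control 17 were called higher (17.9%, against 18% of all tested genes) and 18 lower (18.9%, against 18.2%), with a median log2 fold change of 0.00. These shares are near the background, against which the counts of each list below are also to be read. In Tb-DOX against Tb 0 were higher and 4 lower (4.21%, against 2.54% of all tested genes), with a median of −0.02. Among 8 tested genes of SR uptake, *Sri* was called. It encodes sorcin, a calcium-binding protein that acts on the release channel, and it rose by 0.84 ± 0.15 on the log2 scale (adjusted p = 0.000246, edgeR), from 8.67 ± 1.21 to 15.6 ± 2.38 (SD, n = 5 each). *Dhrs7c*, the most abundant of that list, was at −0.23 ± 0.15 (adjusted p = 0.224).

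Among 16 tested genes of release and the couplon, the junction of tubule and SR, 2 were higher and 4 lower (median −0.07). *Bin1*, which shapes transverse tubules, fell by 1.45 ± 0.24 (adjusted p = 0.000112, edgeR), from 2.37 ± 0.395 in Control to 0.863 ± 0.367 in DOX. *Dysf*, a membrane repair protein, fell by 0.56 ± 0.12 (adjusted p = 0.00101), and *Cav3*, the caveolin of muscle, rose by 0.71 ± 0.20 (adjusted p = 0.00949). *S100a1*, the most abundant of that list, was at 0.18 ± 0.09 (adjusted p = 0.133), and at 0.29 without Control replicate 3, where it passed (adjusted p = 0.00461).

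The lumen buffers held the genes that passed in both DOX comparisons. Of 6 tested, 3 were lower and 0 higher in DOX against Control (median −0.13), and 2 lower in Tb-DOX against Tb (median −0.30). *Calr*, calreticulin, was 91.4 ± 8.06 in Control and 54.1 ± 15 in DOX, and 88.1 ± 9.24 in Tb and 55.5 ± 3.91 in Tb-DOX. It fell by 0.76 ± 0.13 (adjusted p = 0.000192, edgeR) without a tumor and by 0.67 ± 0.13 (adjusted p = 0.00508) with one. *Canx*, the chaperone calnexin, fell by 0.25 ± 0.08 (adjusted p = 0.0143) and by 0.43 ± 0.07 (adjusted p = 0.00233). *Casq1*, the calsequestrin of skeletal muscle, fell by 1.57 ± 0.30 (adjusted p = 0.000432) in DOX against Control, while of 5 tested skeletal muscle markers *Mybpc2* was lower (−0.92) and the others were at 0.84 to 1.95, none of them called. *Srl*, sarcalumenin, was the most abundant, at 0.19 ± 0.11 (adjusted p = 0.178). Fibroblast markers were also lower in both comparisons (5 of 8 and 4 of 8 called), as were all 5 erythroid markers, and their part in the *Calr* and *Canx* values was not tested.

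Among 20 tested genes of calcium entry and exit at the cell surface, 2 were higher and 3 lower in DOX against Control (median −0.09). *Atp2b4*, a plasma membrane calcium pump, rose by 0.48 ± 0.11 (adjusted p = 0.00158, edgeR). *Cacna1g*, a T-type channel, fell by 0.70 ± 0.17 (adjusted p = 0.00297), from a low level of 1.21 in Control to 0.741 in DOX. *Fxyd1*, phospholemman, the most abundant, was at −0.10 ± 0.09 (adjusted p = 0.441). *Stim2*, a sensor of stored calcium, fell by 0.41 ± 0.10 in Tb-DOX against Tb (adjusted p = 0.0219) and was at −0.22 ± 0.10 in DOX against Control (adjusted p = 0.0980). The *Stim2* call in Tb-DOX against Tb was lost in 11 of 33 alternatives (adjusted p up to 0.0745), among them those without Tb replicate 2 or Tb-DOX replicate 1, 2, 3 or 5.

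Of 22 tested kinases, phosphatases and anchors, 8 were higher and 4 lower in DOX against Control (median 0.21). *Prkar1a*, a regulatory subunit of protein kinase A, rose from 118 ± 9.52 to 203 ± 27.1, by 0.78 ± 0.13 on the log2 scale (adjusted p = 0.000101, edgeR). *Ppp1ca*, a catalytic subunit of protein phosphatase 1, rose by 0.45 ± 0.08 (adjusted p = 0.000240), and *Camk2b*, another CaMKII isoform, fell by 0.87 ± 0.17 (adjusted p = 0.000656), as *Camk2d* had. *Camk2b* was near the filter, at 1.19 in Control and 0.648 in DOX, with 69 to 88 counts per DOX library. It was also lower in Tb than in Control, by 0.62 ± 0.16 (adjusted p = 0.0245). Of 11 tested genes of calcineurin and its targets, 1 was higher and 2 lower (median −0.11). *Myoz2*, a calcineurin-binding protein of the Z-disc, rose from 288 ± 16.7 to 481 ± 36.2, by 0.74 ± 0.09 (adjusted p = 1.21e-05). The transcription factor genes *Nfatc2* and *Nfatc4* fell by 1.14 ± 0.18 (adjusted p = 7.48e-05) and 0.81 ± 0.23 (adjusted p = 0.00914). Both were low, at 1.61 and 1.02 in Control and 0.730 and 0.580 in DOX, and *Nfatc4* had 31 to 58 counts per DOX library.

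Of 12 tested genes of mitochondrial calcium transport, 3 were higher and 2 lower (median 0.06). The outer membrane channel gene *Vdac2* rose by 0.53 ± 0.07 (adjusted p = 1.97e-05, edgeR) and *Vdac1*, the most abundant, by 0.23 ± 0.09 (adjusted p = 0.0387, edgeR). The *Vdac1* call was lost with the direction kept in 16 of 34 alternatives, among them library totals (0.0875, adjusted p = 0.367) and those without Control replicate 1, 2, 4 or 5 or DOX replicate 1, 2, 4 or 5 (adjusted p of 0.0610 to 0.0886). It was also lost when scaled to the cardiomyocyte markers, where the log2 fold change of *Vdac1* turned to −0.0263 (adjusted p = 0.801), beside the median of −0.24 over all genes. *Mcur1*, a regulator of the calcium uniporter, rose by 0.39 ± 0.09 (adjusted p = 0.00209), and *Mcu*, its pore, fell by 0.59 ± 0.16 (adjusted p = 0.00686). In Tb-DOX against Tb, no gene of the uptake, release, calcineurin and mitochondrial lists passed. The fourth call there, beside *Calr*, *Canx* and *Stim2*, was the kinase anchor gene *Akap6*, named after its values were seen, at −0.51 on the log2 scale.

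**Figure D4:**
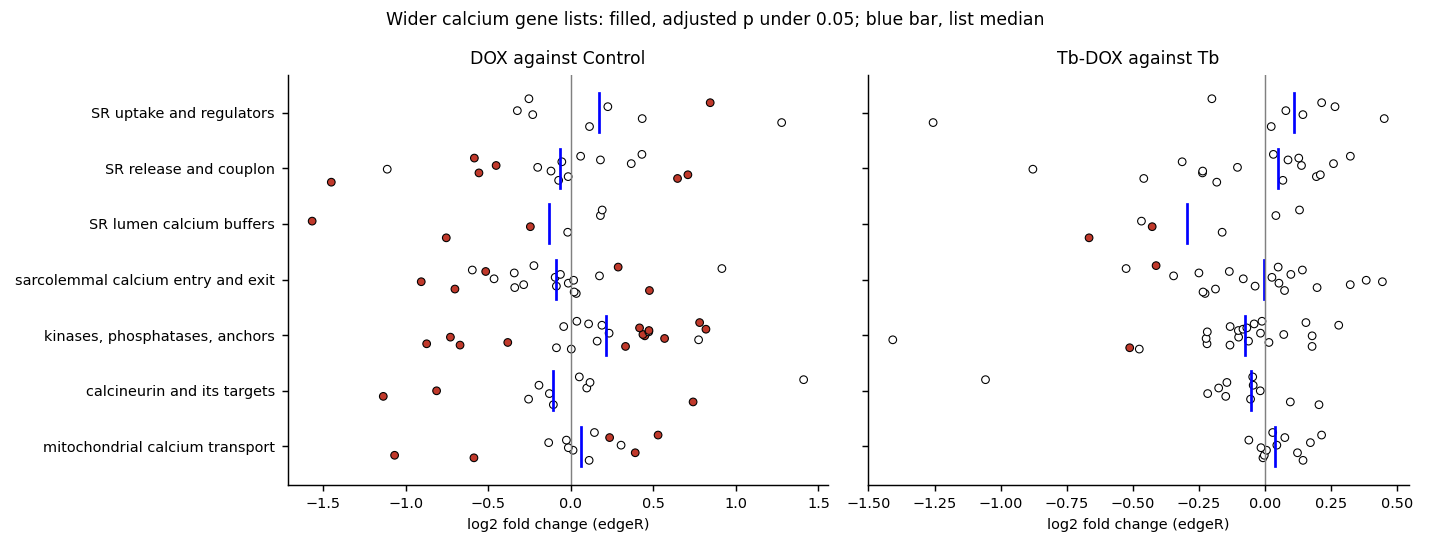
Log2 fold change of each tested gene on 7 lists of calcium handling genes in DOX against Control (left) and Tb-DOX against Tb (right); points are genes, red points have an adjusted p under 0.05 and the blue bar is the list's median. Calls lie on both sides of 0 on the left in most lists, and the 4 calls on the right are all below 0.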

How the data were processed

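RNA sequencing libraries of mouse hearts (5 Control, 5 DOX, 6 Tb, 5 Tb-DOX) were grouped by their labels. The table that the authors deposited holds raw read counts and FPKM for every gene in every library. The submitters' processing notes name Cutadapt, FastQC, HISAT2, HTSeq 0.6.1, DESeq2 1.34.0 and build GRCm39. The deposited FPKM equal the count per kb of exonic size and scaled to the library total, within 0.006 in 100% of values, so FPKM follow the library total, of which mitochondrially encoded genes took 14.6% to 28.9%.

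The filter kept 13990 genes (mean FPKM 0.5 or more). Their counts were fitted in edgeR 4.0.16 under R 4.3.3 (TMM scaling, quasi-likelihood F test, 1 coefficient per group, all 21 libraries). Benjamini-Hochberg adjustment ran over all tested genes, and a call is an adjusted p under 0.05. SEs are the fold change divided by the root of its F statistic. Levels are TMM-scaled CPM per kb. Ratios of 2 members were taken as log2(FPKM + 0.1) and tested with two-sided exact permutation (scipy 1.17.1). The comparisons share libraries. The procedure was tested on simulated data.

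The members and lists were chosen with earlier results of these data known, and the 7 wider lists and 12 marker lists were written from general knowledge. Lists are described by counts and medians, with no set test. Named were the 10 members and, of each wider list, the gene with the highest mean FPKM and up to 3 genes called in a DOX comparison with the smallest adjusted p. Of the list genes, 2 were not found by symbol. Promoter sequences were taken from RefSeq on GRCm38.p6, and other coordinates are those of the table on GRCm39. Alternatives were other scalings, filters and tests (DESeq2 1.42.0, limma 3.58.1), the replicate block, a stricter threshold and leaving out libraries.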

Additional observations from a re-analysis of the deposited data

Results flagged for a closer look

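Of 48 groups of values (10 members and 2 ratios in 4 groups), 7 held a library far from the others of its group by Dixon's criterion, which chance meets in about 1 group in 20. Control replicate 3 accounted for 3 of them. Its *Atp2a2* level of 1251 was the lowest, its *Hrc* level of 732 the highest and its *Pln* to *Atp2a2* ratio of 1.13 the highest of the Control group. This library also had 14.6% mitochondrially encoded counts, against 26.5% to 28.9% in the other Control libraries, and the part of that share in these values was not tested. DOX replicate 3 was low for *Cacna1c* (11.1). In Tb, replicate 6 was low for *Atp2a2* (1440), replicate 5 for *Pln* (1252) and replicate 3 for *Slc8a1* (17.8).

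For 8 of the 95 tested genes of the wider lists, the DOX effect differed between mice with and without a tumor by the interaction test in edgeR, 2 higher (2.11%, against 3.95% of all tested genes) and 6 lower (6.32%, against 5%). The difference, with tumor minus without, was −0.65 on the log2 scale for *Myoz2* (adjusted p = 0.0108), which was at 0.74 without and 0.09 with a tumor. It was −0.63 for *Prkar1a* (adjusted p = 0.0316), at 0.78 and 0.15, and −0.31 for *Vdac2* (adjusted p = 0.0490), at 0.53 and 0.21. It was 0.99 for *Nfatc2* (adjusted p = 0.0205), at −1.14 and −0.15, and 1.27 for *Bin1* (adjusted p = 0.0233), at −1.45 and −0.18. The other 3, named after their values were seen, were *Ppp1r3a* at −0.90 (adjusted p = 0.0235), *Pde4d* at −0.79 (adjusted p = 0.0376) and *Calm2* at −1.11 (adjusted p = 0.0320, at 0.65 without and −0.46 with a tumor). The call of *Vdac2* was lost in 27 of 33 alternatives (18 of the 21 that leave out 1 library), *Pde4d* in 18 of 32 (10 of 21), *Calm2* in 13 of 33 (8 of 21), *Prkar1a* in 11 of 33 (6 of 21) and *Ppp1r3a* in 5 of 33 (0 of 21). The calls of *Bin1* and *Nfatc2* were lost in 2 of 32 and that of *Myoz2* in 1 of 33, none of them by leaving out 1 library.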

How the results depend on the processing

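Calls of the 10 genes in DOX against Control numbered 5 under median-ratio size factors, no filter, a minimum mean FPKM of 5, DESeq2, only the groups compared, the replicate block, an adjusted p under 0.01 and without the libraries that stand apart, with the same genes each time. Scaling to the cardiomyocyte markers also called 5, with *Ryr2* and *Trdn* lower in place of *Jph2* and *Pln*. They numbered 4 under library totals without mitochondrially encoded genes and 3 under library totals and under limma on log2(FPKM + 0.1) or log2(FPKM + 1). Leaving out single libraries gave 5 to 6, the 6 without DOX replicate 3. In Tb-DOX against Tb, where 0 were called, 1 (*Slc8a1*) was called under library totals, a minimum mean FPKM of 5, DESeq2, only the groups compared, the replicate block and without the 3 libraries that stand apart, 5 under scaling to the cardiomyocyte markers, and 0 to 1 without single libraries. In Tb against Control the 0 became 1 (*Hrc*) under DESeq2 and 0 to 1 without single libraries, the 1 without DOX replicate 3 or Tb replicate 1. In Tb-DOX against DOX the 2 became 0 under library totals and both limma fits, 1 under library totals without mitochondrially encoded genes, no filter, a minimum mean FPKM of 5, only the groups compared, an adjusted p under 0.01 and scaling to the cardiomyocyte markers, 6 without the libraries that stand apart, and 1 to 4 without single libraries, the 4 without DOX replicate 3 and the 1 without DOX replicate 1 or 2 or Tb-DOX replicate 3 or 4. The cause of these moves was not tested. The interaction called 0 members under every alternative run. Scaling to the markers and leaving out the libraries that stand apart were added after seeing the data.

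Without single libraries the log2 ratio of *Pln* to *Atp2a2* was −0.17 to −0.11 in Tb-DOX against DOX and that of *Slc8a1* to *Atp2a2* −0.28 to −0.15 in Tb against Control, passing at the unadjusted threshold without DOX replicate 1, Tb-DOX replicate 5 or Tb replicate 6. Both ratios kept their direction and side of the threshold in both DOX comparisons under every alternative run. Fold changes near 0 changed sign, none of them called in the main analysis except *Vdac1*. In DOX against Control these were *Atp2a2* with no filter (0.00103), *Casq2* under median-ratio size factors (0.00915), no filter (0.0121) and DESeq2 (0.00915), and, without the libraries that stand apart, *Ryr2* (0.00329), *Casq2* (0.154), *Trdn* (0.0786) and *Fxyd1* (0.00435). Scaling to the cardiomyocyte markers moved the median of all genes to −0.24 in DOX against Control and −0.29 in Tb-DOX against Tb, so values between 0 and about that size turn by construction. *Cacna1c* (−0.10), *S100a1* (−0.0543), *Srl* (−0.0711) and *Vdac1* (−0.0263) turned in DOX against Control, and *Pln* (−0.21), *Casq2* (−0.14), *Cacna1c* (−0.20), *Jph2* (−0.14), *Trdn* (−0.25), *Myoz2* (−0.18), *Prkar1a* (−0.12) and *Vdac2* (−0.0586) in Tb-DOX against Tb. *Trdn* also turned there under library totals without mitochondrially encoded genes (−0.0108) and the replicate block (−0.0262), and the interaction of *Slc8a1* under library totals (0.00253) and limma (0.0259 and 0.0231). Without single libraries, *Atp2a2* ranged from −0.0813 to 0.0733, *Casq2* from −0.11 to 0.15, *Ryr2* from −0.21 to 0.0620, *Trdn* from −0.0839 to 0.0318 and *Fxyd1* from −0.14 to 0.000317 in DOX against Control, and *Trdn* from −0.0232 to 0.0582 and *Ppp1r3a* from −0.14 to 0.0104 in Tb-DOX against Tb. Of the other named genes called in DOX against Control, *Atp2b4* lost its call under both limma fits and marker scaling (0.22 in the latter). *Cav3* (0.47), *Mcur1* (0.13) and *Ppp1ca* (0.21) lost theirs under marker scaling, and *Canx* with no filter and at an adjusted p under 0.01. *Pde4d* lost its call in 5 alternatives and *Calm2* in 10, among them those without Control replicate 1 or 2 or DOX replicate 2 or 4 (adjusted p up to 0.0636). Calls were gained there by *Fxyd1* and *Stim2* under both library totals, both limma fits and marker scaling, and by *Dhrs7c* under marker scaling, and by *Vdac2* in 8 alternatives of Tb-DOX against Tb.

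Replicate numbers did not pair the libraries. Same-numbered libraries of different groups had residual correlations of −0.26 to 0.23 over 30 pairs, and 5 exceeded 0.1. With the replicate block, called genes over the whole table went from 5071 to 4882 in DOX against Control, from 660 to 793 in Tb-DOX against Tb and from 1251 to 506 for the interaction. The members had at least 2321 counts in each library. The parts of counting error and of spread between replicates in the 10 genes were not tested.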
